A study of Mus musculus with 36 samples.

Results

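The nuclear-encoded genes of the mitochondrial respiratory chain were followed across 12 groups of mouse monocytes, macrophages and dendritic cells. A gene was taken by the name its probe carries on the array: any name beginning with Nduf, Uqcr, Atp5 or Cox4 to Cox8, together with Sdha, Sdhb, Sdhc, Sdhd, Cycs and Cyc1. The array carried 85 such names, and 82 of them were well above background on at least 3 of the 36 arrays, out of 17673 genes kept by the same filter. These 82 genes were in fact above background on all 36 arrays. The 3 names left out were Cox4i2 and Cox8b, above background on 0 arrays, and Cox8c, above background on 1.

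The respiratory chain passes electrons from NADH and succinate to oxygen across the inner mitochondrial membrane. Complex I (NADH dehydrogenase, Nduf genes) and complex II (succinate dehydrogenase, Sdh genes) feed electrons to ubiquinone, complex III (Uqcr genes and Cyc1) hands them to cytochrome c, and complex IV (cytochrome c oxidase, Cox genes) reduces oxygen. Complex V (ATP synthase, Atp5 genes) uses the resulting proton gradient to make ATP. In macrophages the use of this chain is known to shift with activation: cells given IL-4 are known for oxidative metabolism and cells given LPS with IFN-γ for glycolysis.

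By complex, the 82 genes were 36 of complex I, 2 assembly factors of complex I, 4 of complex II, 8 of complex III, 1 cytochrome c, 14 of complex IV and 16 of complex V. The remaining gene, Cox4nb, is not a chain subunit and is now named Emc8. Some array names are old: Ndufa12l is now Ndufaf2, a complex I assembly factor, Atp5s is now Dmac2l, and Uqcr is now Uqcr11. Ndufa4 was counted with complex I by its name, although its protein is now assigned to complex IV. Atp5s and Cox7a2l were likewise counted with complexes V and IV by name, which does not establish that they are chain subunits.

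The cells came from bone marrow, sorted by flow cytometry as CD11b+, Ly6C+ and Ly6G- monocytes, and each group held 3 arrays, 1 from each of 3 numbered experimental series. Monocytes were taken without culture. Macrophages (MΦ) grew for 6 days in 10% FCS and 20 ng/ml M-CSF and then received, for 24 h, nothing (M0), 25 ng/ml IFN-γ (IFN-γ MΦ), 25 ng/ml IFN-γ with LPS at 100 µg/ml as the labels give it (M1), 20 ng/ml IL-4 (M2a), or dexamethasone at 10 to the power -7 M (M2c). M2b cells were IFN-γ-treated macrophages grown on complexed human immunoglobulin. Mo-DC grew in 10% FCS, 20 ng/ml GM-CSF and 20 ng/ml IL-4 and received 25 ng/ml IFN-γ. Regulatory macrophages (Mreg) grew in 10% human AB serum, 10% FCS and 5 ng/ml M-CSF and received 25 ng/ml IFN-γ (Mreg), nothing (Mreg no IFN-γ), or IFN-γ with the same labelled amount of LPS (Mreg + LPS). Unpurified Mreg received IFN-γ too but started from adherent mononuclear cells of bone marrow, spleen and blood. Mreg and macrophage cultures therefore differed in serum and in M-CSF together, and M1 and M2a differed in 3 agents. The labels used here give no strain, age or number of animals per array, so p-values measure the spread between these arrays, part of which may be technical. M0 served as the control for IFN-γ MΦ, M2a, M2c and Mreg no IFN-γ, and IFN-γ MΦ for M1, M2b, Mo-DC and Mreg, so comparisons within each set share their control arrays.

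Values are log2 signal relative to each array's 75th percentile; that percentile lay between 319.962 and 648.231 signal units. It was lowest in Mreg + LPS (319.962 to 343.393) and also low in M1 (413.24 to 436.017) and on unpurified Mreg replicate 2 (334.525, against 507.31 and 469.986 on the other arrays of that group), so results of these groups are given under other scalings of the arrays as well. Each of 9 slides held 4 arrays, 1 from each group of a fixed set: Monocytes, M0, M1 and M2a on 3 slides, IFN-γ MΦ, M2b, M2c and Mo-DC on another 3, and the 4 Mreg groups on the last 3. Comparisons across these sets (IFN-γ MΦ, M2c and Mreg no IFN-γ against M0, and M1 and Mreg against IFN-γ MΦ) therefore join the treatment with the slide, and the 2 cannot be told apart there. Between 7 and 8 of 8 macrophage markers were above background on all arrays of every group. Monocytes also carried all 10 markers of neutrophils and their precursors, with a summed signal of 3336.8 to 4162.4 times the 75th percentile, against at most 24.173 in any other group. The 6 erythroid markers summed to 60.437 to 115 in Monocytes and at most 0.44059 elsewhere. For the 7 T and NK cell markers the sums were 27.406 to 50.749 in Monocytes and at most 1.2442 elsewhere. For the 4 B and plasma cell markers they were 4.6927 to 5.2662 and at most 1.827. In bulk RNA, fewer cells of a type and less RNA per cell cannot be told apart. A single array value among the 82 genes lay more than 2 log2 units from both others of its group: Cox6c read -1.54 on Monocytes replicate 1 and 5.89 and 5.75 on the other two.

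Promoters are shown for 5 genes because their genes carry the main contrasts below: Cycs and Sdhd, with the largest rises in IFN-γ MΦ against M0, and Atp5g1, Atp5g2 and Atp5g3, which encode the same mature c subunit of ATP synthase from separate genes and are read side by side in the LPS results. Each is the 250 bases before the annotated start in RefSeq (GRCm38.p6), read 5′ to 3′ on the gene's strand, which is the minus strand for all of them. Capitals mark a match to GCGCA, any base, then GCGC, the core recognised by NRF1, a transcription factor known to bind many respiratory chain promoters.
Cycs, chr6:50566570-50566819: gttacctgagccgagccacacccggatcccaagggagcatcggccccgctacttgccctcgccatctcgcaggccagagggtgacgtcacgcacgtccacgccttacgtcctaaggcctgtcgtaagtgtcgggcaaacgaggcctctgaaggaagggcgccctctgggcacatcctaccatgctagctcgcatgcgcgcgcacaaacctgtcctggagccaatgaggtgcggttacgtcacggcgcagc
Sdhd, chr9:50603850-50604099: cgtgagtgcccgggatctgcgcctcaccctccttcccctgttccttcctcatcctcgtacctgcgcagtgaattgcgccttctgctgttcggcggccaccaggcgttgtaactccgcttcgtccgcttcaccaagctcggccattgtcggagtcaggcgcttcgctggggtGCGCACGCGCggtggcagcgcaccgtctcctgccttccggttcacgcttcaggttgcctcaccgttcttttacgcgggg
Atp5g1, chr11:96075632-96075881: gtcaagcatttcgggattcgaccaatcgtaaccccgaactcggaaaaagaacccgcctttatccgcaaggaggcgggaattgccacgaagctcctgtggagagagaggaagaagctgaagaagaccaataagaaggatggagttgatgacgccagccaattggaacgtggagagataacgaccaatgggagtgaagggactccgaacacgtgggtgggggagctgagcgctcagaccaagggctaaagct
Atp5g2, chr15:102671048-102671297: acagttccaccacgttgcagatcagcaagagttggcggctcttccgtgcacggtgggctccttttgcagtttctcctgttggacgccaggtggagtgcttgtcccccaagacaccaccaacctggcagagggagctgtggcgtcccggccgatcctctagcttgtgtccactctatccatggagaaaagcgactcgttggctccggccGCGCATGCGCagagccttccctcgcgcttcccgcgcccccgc
Atp5g3, chr2:73911327-73911576: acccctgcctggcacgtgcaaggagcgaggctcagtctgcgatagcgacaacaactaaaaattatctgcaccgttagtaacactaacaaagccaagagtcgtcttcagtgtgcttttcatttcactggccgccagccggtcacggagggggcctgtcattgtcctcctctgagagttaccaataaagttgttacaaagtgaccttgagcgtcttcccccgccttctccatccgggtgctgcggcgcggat
The NRF1 core began 42 bases before the start of Atp5g2 and 79 bases before that of Sdhd. The windows printed for Cycs, Atp5g1 and Atp5g3 held no match, which says only that these letters are absent there, and Atp5g3 had a match in the 50 bases after its start, which are not shown. Near matches were not searched for or marked, such as tcgcatgcgc in the Cycs window, which differs from the core in its first letter only. In windows of 300 bases, reaching 50 bases past the start and searched on both strands, 68 of the 82 genes had an entry. The NRF1 core occurred in 17 of these 68 (25.0%) and in 5.19% of all 27025 genes. The YY1 core AAGATGGC occurred in 10 (14.7%) against 3.19%, and the ETS core CCGGAAGT, bound by GABP, in 5 (7.35%) against 4.31%. The respiratory chain windows were also richer in G and C, with a median of 58.4% against 52.8%, and a match is a description of sequence, not of binding.

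Across the 12 groups the chain genes moved over a narrower span than most genes. The range of the group means had a median of 1.04 log2 units for the 82 genes and 1.98 for all genes, while the median spread within a group was alike, 0.17 and 0.19. The 82 genes were above background on all 36 arrays, whereas a gene needed only 3 to be counted among all genes. Their range was not set against genes of like detection or brightness. The range was below 0.5 for 2 genes and above 2 for 7. With limma's F test over the 12 groups and Benjamini-Hochberg adjustment, 77 of 82 genes differed between groups, and 92.6% of all genes did. The least variable gene was Ndufa8, a complex I subunit of the intermembrane side, with a range of 0.28 (adjusted p = 0.591).

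Most chain genes followed a common profile, as a correlation across the 12 group means describes: 63 of 82 had r above 0.5 with the median of the other genes and 32 had r above 0.8. These groups share arrays, scaling and slides, so the correlation is a description only. The correlation was below 0 in 4 genes: Ndufaf1 (-0.46), Ndufa4 (-0.32), Atp5s (-0.21) and Ndufb10 (-0.02). Relative to each gene's mean over the groups, the median chain gene was highest in unpurified Mreg (0.35 ± 0.24, SD, n = 3), Mreg + LPS (0.34 ± 0.31) and Mo-DC (0.24 ± 0.06). It was lowest in M0 (-0.28 ± 0.10) and M2c (-0.28 ± 0.12), followed by Monocytes (-0.18 ± 0.15), and the 6 remaining groups lay between -0.13 and 0.06. Neighbouring groups in this order differed by less than their spread, apart from the step from Mo-DC to IFN-γ MΦ (0.06 ± 0.16). Mreg + LPS held the highest mean of 36 genes. This order was computed with the 75th percentile alone, and both the place of Mreg + LPS in it and that count rest on the scaling discussed with the LPS results. Within groups, replicate 1 had the highest chain median in all but unpurified Mreg. In M0, for example, replicates 1, 2 and 3 read -0.19, -0.26 and -0.38. All replicate 1 arrays were scanned on a separate day, so series number and scan day cannot be told apart there.

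**Figure D1:**
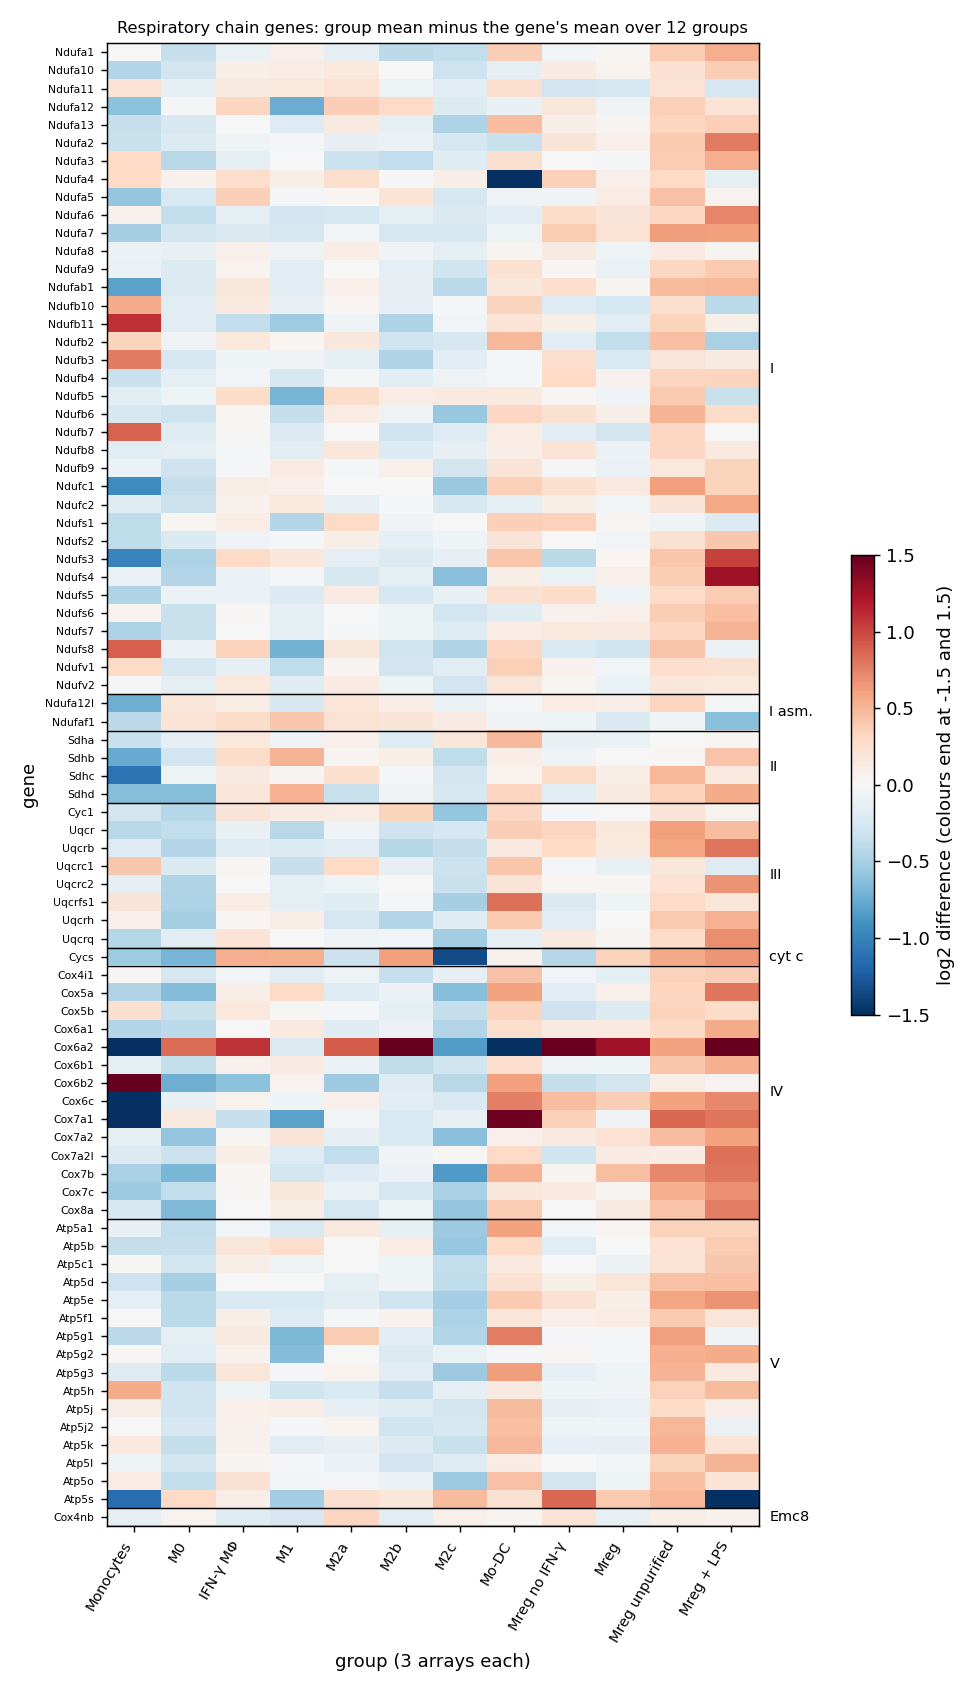
Mean of 3 arrays in each of 12 groups for the 82 genes, as the log2 difference from the gene's own mean over the groups, ordered by complex. Most rows are pale, the M0 and M2c columns are mostly blue, and the tissue isoforms Cox6a2, Cox7a1 and Cox6b2 stand out in complex IV. The dark cell of Cox6c in Monocytes rests on 1 array.

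The widest differences in the whole chain were in isoforms of complex IV that are best known from other tissues. Cox6a2 is the heart and skeletal muscle form of subunit 6A, Cox7a1 the muscle form of subunit 7A, and Cox6b2 the testis form of subunit 6B. Their probes lie on mouse chromosome 7 in build mm8, at 127996794 to 127996853 for Cox6a2, 29894078 to 29894689 for Cox7a1 and 4354973 to 4355032 for Cox6b2. Cox6a2 read -3.17, -2.75 and -3.14 in Monocytes and 3.99, 4.15 and 3.92 in M0. It therefore rose by 7.04 ± 0.35 (standard error) log2 units, or 131-fold, on culture (limma, adjusted p = 9.17e-16). This was the largest range of any chain gene, 7.81 between Monocytes and M2b.

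Among cultured cells the level of Cox6a2 differed with the treatment. It was highest in M2b (4.65, 5.02, 4.70), Mreg no IFN-γ (5.11, 4.27, 4.60), Mreg + LPS (5.24, 4.04, 4.75) and Mreg (4.81, 4.13, 4.36), groups that overlapped one another. IFN-γ MΦ (4.24, 4.41, 4.15), M2a (3.36, 4.62, 4.26) and M0 overlapped as well, and unpurified Mreg spread from 2.89 to 4.27. In M2c, given dexamethasone, it read 2.29, 2.45 and 2.28, a fall of 1.68 ± 0.35 against M0 (adjusted p = 0.000835), with no overlap. Mo-DC were lower still at 1.26, 1.17 and 0.93, a fall of 3.14 ± 0.35 against IFN-γ MΦ (adjusted p = 2.9e-08). M1 arrays were scattered at 2.22, 3.54 and 3.16, all below the 3 IFN-γ MΦ arrays.

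Cox6a2 lies beside a cluster of integrin genes. In RefSeq (GRCm38.p6) the genes Itgam, Itgax and Itgad precede it, and 9130023H24Rik, Armc5 and Tgfb1i1 follow. The end of Itgad overlaps the Cox6a2 gene by 70 bases, and no probe on the array carries the name Itgad, so its part in this signal was not tested. Itgax, which encodes the integrin chain CD11c, read -0.54 ± 0.44 (SD, n = 3) in Monocytes and 5.12 ± 0.52 in M0. In Mo-DC Itgax had its highest group mean (7.94 ± 0.04) and Cox6a2 its lowest among cultured cells. The neighbour Armc5 read 2.58 ± 0.03 in Monocytes and 2.50 ± 0.03 in M0.

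Cox7a1 was also lowest in Monocytes (-1.52, -1.46, -1.56) but highest in Mo-DC (2.12, 1.79, 2.07). It rose by 2.19 ± 0.18 from Monocytes to M0 (adjusted p = 2.53e-11) and was 1.80 ± 0.18 higher in Mo-DC than in IFN-γ MΦ (adjusted p = 4.06e-09). The ubiquitous form of the same subunit, Cox7a2, read 5.68, 5.40 and 5.28 in Monocytes and 5.32, 4.90 and 4.80 in M0. Cox6b2 ran the other way, at 0.27, 0.02 and 0.08 in Monocytes and -3.11, -2.95 and -2.64 in M0, a fall of 3.02 ± 0.14 (adjusted p = 5.26e-16). In Mo-DC it read -1.46, -1.29 and -1.90, which was 1.23 ± 0.14 above IFN-γ MΦ (adjusted p = 8.42e-08). The isoforms Cox4i2, Cox8b and Cox8c were not above background in these cells, apart from 1 array for Cox8c.

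**Figure D2:**
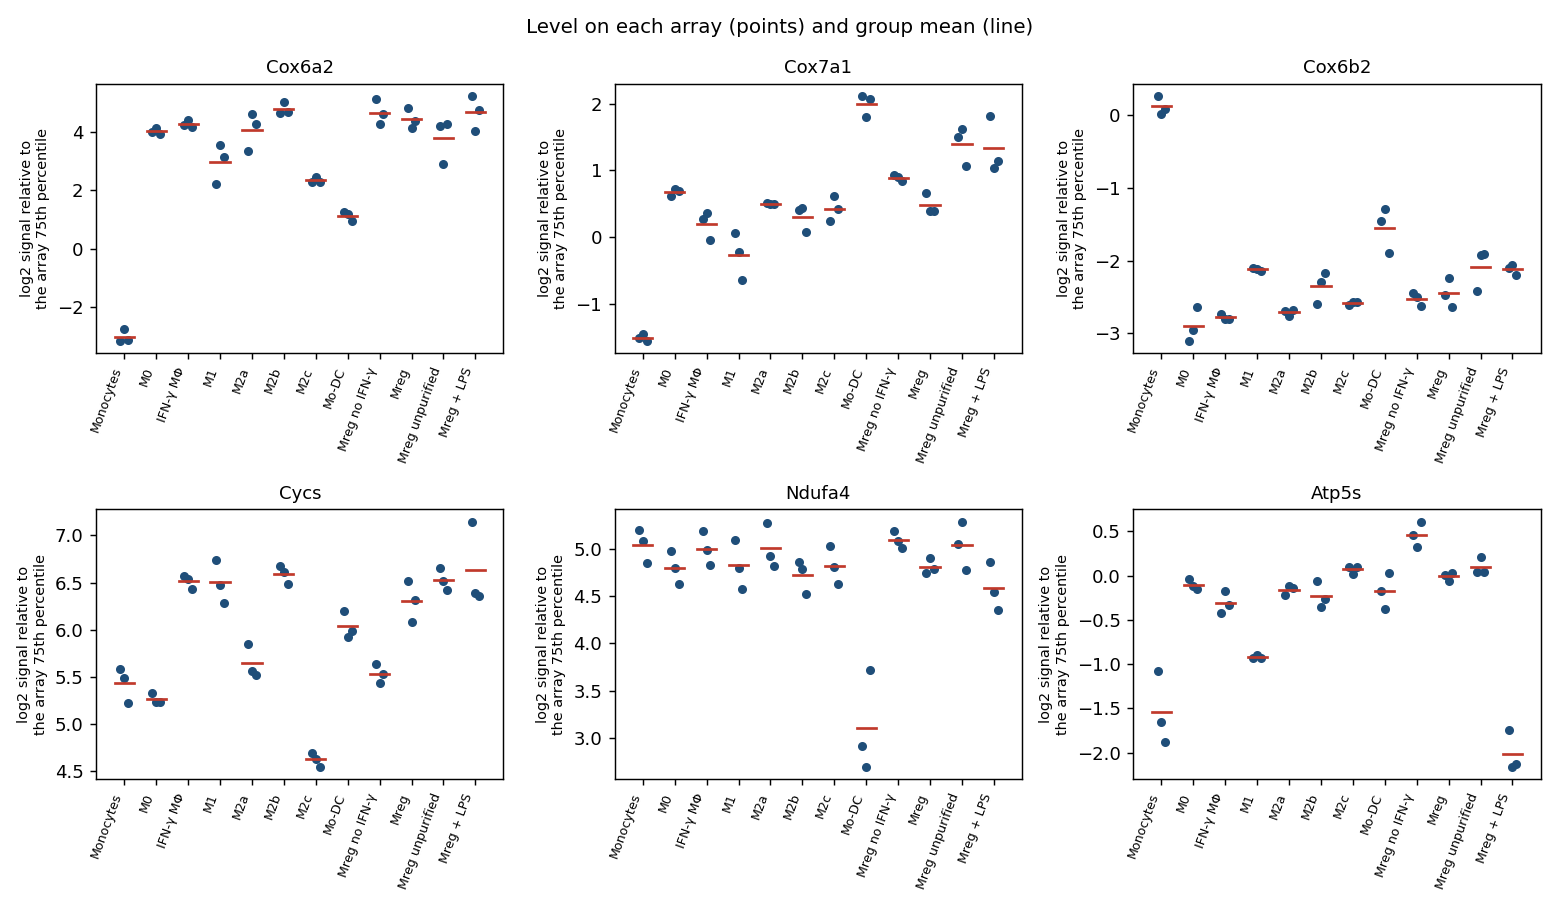
Level of 6 genes on each array (points) with the group mean (line), in log2 signal relative to the array's 75th percentile; each panel has its own scale. Cox6a2 and Cox7a1 are low in Monocytes and part company in Mo-DC, Cox6b2 is high in Monocytes, and Cycs splits the groups by IFN-γ. Ndufa4 is low in Mo-DC alone. The Atp5s probe shown is low in Monocytes and Mreg + LPS, and a second probe of this gene does not share the fall in Mreg + LPS.

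From Monocytes to M0 macrophages chain genes were called in both directions. The share called, 40.2%, was below that of all genes. Of the 82 genes, 14 were higher and 19 lower in M0, when 30.2% of all genes were higher and 33.3% lower. In either direction 63.4% of all genes were called, and 47 of the 82 genes, and 69.1% of all genes, had no overlap between Monocytes and M0 arrays. The median gene differed by -0.18 log2 units, against -0.08 over all genes. Complex III had 4 of 8 genes lower and 0 higher, and complex V 5 of 16 lower and 1, Atp5s, higher. Complex II, in contrast, had 2 of 4 genes higher: Sdhc, a membrane anchor subunit, read 2.50, 2.37 and 2.12 in Monocytes and 3.47, 3.40 and 3.20 in M0 (1.03 ± 0.16, adjusted p = 3.08e-06). Several complex I accessory subunits fell, among them Ndufb11 (-1.26 ± 0.18), Ndufb7 (-1.06 ± 0.17) and Ndufb3 (-1.03 ± 0.16), as did the iron-sulfur subunit Ndufs8 (-0.99 ± 0.17). The complex I assembly factors Ndufa12l (0.90 ± 0.12) and Ndufaf1 (0.60 ± 0.10) rose.

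Under 4 scalings of the arrays (75th percentile, normexp background correction, quantile and cyclic loess), 7 genes were called higher and 18 lower throughout. Among the genes just named, all belonged to these. The balance of calls moved with the scaling, to 24 higher and 19 lower after quantile normalization and 14 and 38 after cyclic loess. The call of Cox6c, higher in M0 by 2.38 ± 0.98, rests on Monocytes replicate 1, since the other 2 Monocytes arrays overlap the M0 values of 6.05, 5.63 and 5.55. The part of the neutrophil, erythroid, T, NK and B cell transcripts of the Monocytes arrays in these differences was not tested.

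Part of the chain was higher in IFN-γ MΦ than in M0, groups that lay on different slides. Of 82 genes, 19 were higher and 0 lower in IFN-γ MΦ than in M0, against a background of 11% higher, 11.1% lower and 22.2% in either direction. The arrays of 46 of the 82 genes did not overlap, and those of 45.1% of all genes. The difference was positive in 77 genes, with a median of 0.31 against -0.01 over all genes. Cytochrome c led: Cycs, the soluble electron carrier that also triggers apoptosis when released, read 5.33, 5.24 and 5.23 in M0 and 6.57, 6.54 and 6.43 in IFN-γ MΦ. It rose by 1.25 ± 0.16 (2.37-fold, adjusted p = 7.4e-07), and every IFN-γ array lay above every M0 array. Over all groups, the arrays of cells given IFN-γ lay between 5.92 and 7.15, and those of cells without it between 4.55 and 5.86, a split that was seen in the values and is given as a description.

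Complex II had 3 of its 4 genes called in the same comparison. Sdhd, a membrane anchor, went from 4.64, 4.65 and 4.63 to 5.60, 5.48 and 5.30 (0.82 ± 0.15, adjusted p = 0.000127). Sdhb, the iron-sulfur subunit, rose by 0.56 ± 0.11 and Sdha, the catalytic flavoprotein, by 0.30 ± 0.10. Sdhc differed by 0.21 ± 0.16 and was not called (adjusted p = 0.411).

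In the rest of the chain the genes that rose were 3 of 8 in complex III, 5 of 14 in complex IV, 5 of 16 in complex V and 2 of 36 in complex I. The 2 in complex I were the core subunit Ndufs3 (0.76 ± 0.17, adjusted p = 0.00178) and the accessory subunit Ndufa5 (0.58). Cox5a, a nuclear-encoded subunit of complex IV, rose by 0.74 ± 0.16 and Cyc1, the cytochrome of complex III, by 0.61 ± 0.16. Cox7b, of complex IV, was 0.72 ± 0.23 higher (adjusted p = 0.0243), a call lost without IFN-γ MΦ replicate 1 (0.61, adjusted p = 0.118), IFN-γ MΦ replicate 2 (0.69, 0.0752), M0 replicate 2 (0.71, 0.0665) or M0 replicate 3 (0.64, 0.0961).

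All 19 genes were called under each of the 4 scalings. The series numbers paired these arrays, and with them as a block 43 genes were higher and 1 lower; with slide as a random block 23 were higher and 0 lower. The count fell to 10 higher and 0 lower without IFN-γ MΦ replicate 1, 10 and 1 without IFN-γ MΦ replicate 2, and 9 and 0 without M0 replicate 3. When each array was instead centred on the median of the 82 genes themselves, 7 were higher and 7 lower, which measures the spread around the common shift.

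In Mreg cultures the same IFN-γ treatment gave fewer calls. Of 82 genes, 1 was higher and 3 lower in Mreg than in Mreg no IFN-γ, with 9.51% of all genes higher, 10.9% lower and 20.4% in either direction. For 18 of the 82 genes the arrays did not overlap, against 36.2% of all genes, and the median gene differed by -0.06, as did all genes. The gene that rose was again Cycs, from 5.64, 5.43 and 5.54 to 6.51, 6.08 and 6.32 (0.77 ± 0.16, adjusted p = 0.00064). Sdhd differed by 0.29 ± 0.15 and was not called (adjusted p = 0.182). The 3 lower genes were Ndufb3 (-0.49), Atp5s (-0.47) and the large complex I subunit Ndufs1 (-0.31). Counts this small moved with the setting: 4 higher and 5 lower with the replicate block, 5 and 7 after quantile normalization, and 1 and 1 without Mreg replicate 3 or Mreg no IFN-γ replicate 2. Without Mreg no IFN-γ replicate 1 they were 2 and 1.

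The difference between the 2 IFN-γ responses was tested directly. In limma 0 of 82 genes passed at adjusted p below 0.05 and 19 at an unadjusted p below 0.05, where 1.64% of all genes passed the adjusted test (1.18% with a higher and 0.458% with a lower response in Mreg). The response was smaller in Mreg for 80 of 82 genes, with a median difference of -0.38 against -0.06 over all genes. For Cycs the difference was -0.48 (95% interval -0.93 to -0.02, adjusted p = 0.388) and for Sdhd -0.53 (-0.96 to -0.09, adjusted p = 0.27). Mreg and Mreg no IFN-γ shared slides while IFN-γ MΦ and M0 did not, so a shift between slides enters the macrophage side alone. Both IFN-γ comparisons have their own controls.

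Relative to those controls, Mreg culture without IFN-γ already stood above M0. Of 82 genes, 20 were higher and 1 lower in Mreg no IFN-γ than in M0 (background 17.2% and 13.7%, 30.9% either way), with a median of 0.30 against 0.06. In 57 of the 82 genes the arrays did not overlap, against 50.3% of all genes. Complex I had 8 of 36 genes higher, complex IV 5 of 14, complex III 3 of 8 and complex V 3 of 16, with Atp5s among the last. Uqcrb, a complex III subunit, read 4.16, 3.81 and 3.61 in M0 and 4.79, 4.55 and 4.47 in Mreg no IFN-γ (0.74 ± 0.22, adjusted p = 0.0119), and its arrays did not overlap. Uqcr (0.69 ± 0.18) and Cox8a (0.66 ± 0.20) behaved likewise. Uqcrb lost its call without M0 replicate 3 (0.62, adjusted p = 0.07) or Mreg no IFN-γ replicate 1 (0.65, 0.0575). Of the 20 genes, 16 were called under all 4 scalings. The count was 10 higher and 0 lower without M0 replicate 3, 7 and 1 without Mreg no IFN-γ replicate 1, and 12 and 0 without Mreg no IFN-γ replicate 2. With slide as a random block 24 were higher and 1 lower.

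With IFN-γ in both, Mreg and IFN-γ MΦ were close. Of 82 genes, 0 were higher and 4 lower in Mreg (background 14% each way, 28% in all), 12 had an unadjusted p below 0.05, and the median differed by -0.04. The arrays of 16 genes did not overlap, against 45.5% of all genes. The 4 were Ndufs8 (-0.64 ± 0.17, adjusted p = 0.00566), Ndufaf1 (-0.49 ± 0.10), Ndufb10 (-0.41 ± 0.12) and Sdha (-0.26 ± 0.10). Ndufs8 read 1.73, 1.49 and 1.32 in IFN-γ MΦ and 1.00, 0.80 and 0.82 in Mreg. The call of Sdha was lost without any 1 of the 6 arrays, at adjusted p-values from 0.0639 to 0.192, and the count was 0 and 2 without IFN-γ MΦ replicate 1 or Mreg replicate 3. Quantile normalization gave 3 higher and 13 lower and cyclic loess 2 and 12.

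IL-4 gave few calls. In M2a, 5 genes were higher and 0 lower than in M0 (background 6.73% and 5.75%, 12.5% either way), a share near the background, while 79 of 82 differences were positive with a median of 0.27 against 0.06. The arrays of 32 genes did not overlap, against 35.3% of all genes. Of the 5, 3 were of complex III: Cyc1 (0.54 ± 0.16), the core protein Uqcrc1 (0.52 ± 0.13) and the core protein Uqcrc2 (0.37 ± 0.10). The others were Atp5a1, the alpha subunit of ATP synthase (0.52 ± 0.17), and Ndufa10 (0.43 ± 0.14). Uqcrc1 read 5.06, 5.07 and 4.99 in M0 and 5.89, 5.47 and 5.33 in M2a, with replicate 1 of M2a the highest. For the chain median, replicate 1 was the highest array in most groups. Without M2a replicate 1, 0 genes were called, without M2a replicate 3 there were 10, and without M0 replicate 1, 2 or 3 there were 1, 2 and 3, all higher. The replicate block, which these arrays supported, gave 22 higher and 0 lower, and a fit of M0 and M2a alone gave 0.

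Few chain genes were called with dexamethasone or immunoglobulin. In M2c, 1 gene was higher and 2 lower than in M0 (background 9.96% and 10.7%, 20.6% either way, and 43.3% with arrays that did not overlap, against 21 of the 82), with 8 at an unadjusted p below 0.05. Cycs fell from 5.33, 5.24 and 5.23 to 4.69, 4.63 and 4.55 (-0.64 ± 0.16, adjusted p = 0.00367), a call lost with normexp background correction (-0.45, adjusted p = 0.105). Sdha rose by 0.33 ± 0.10 (adjusted p = 0.015), lost without M0 replicate 3 (0.30, 0.0623) or M2c replicate 3 (0.31, 0.0588), and Cox6a2 fell as given above. With the replicate block the counts were 2 higher and 4 lower, and after quantile normalization 2 and 3. In M2b, 0 genes were higher and 2 lower than in IFN-γ MΦ (background 2.18% and 1.78%, 3.97% either way, and 26.9% with arrays that did not overlap, against 16 of the 82), and 10 had an unadjusted p below 0.05. The 2 were Ndufs8 (-0.64 ± 0.17, adjusted p = 0.0317) and Sdha (-0.35 ± 0.10, adjusted p = 0.04) by limma. Both calls were lost without IFN-γ MΦ replicate 1 or 2 or M2b replicate 3, when 0 genes were called, and 1 gene was called without IFN-γ MΦ replicate 3 or M2b replicate 2. With the block 4 were lower, and with normexp 0.

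**Figure D3:**
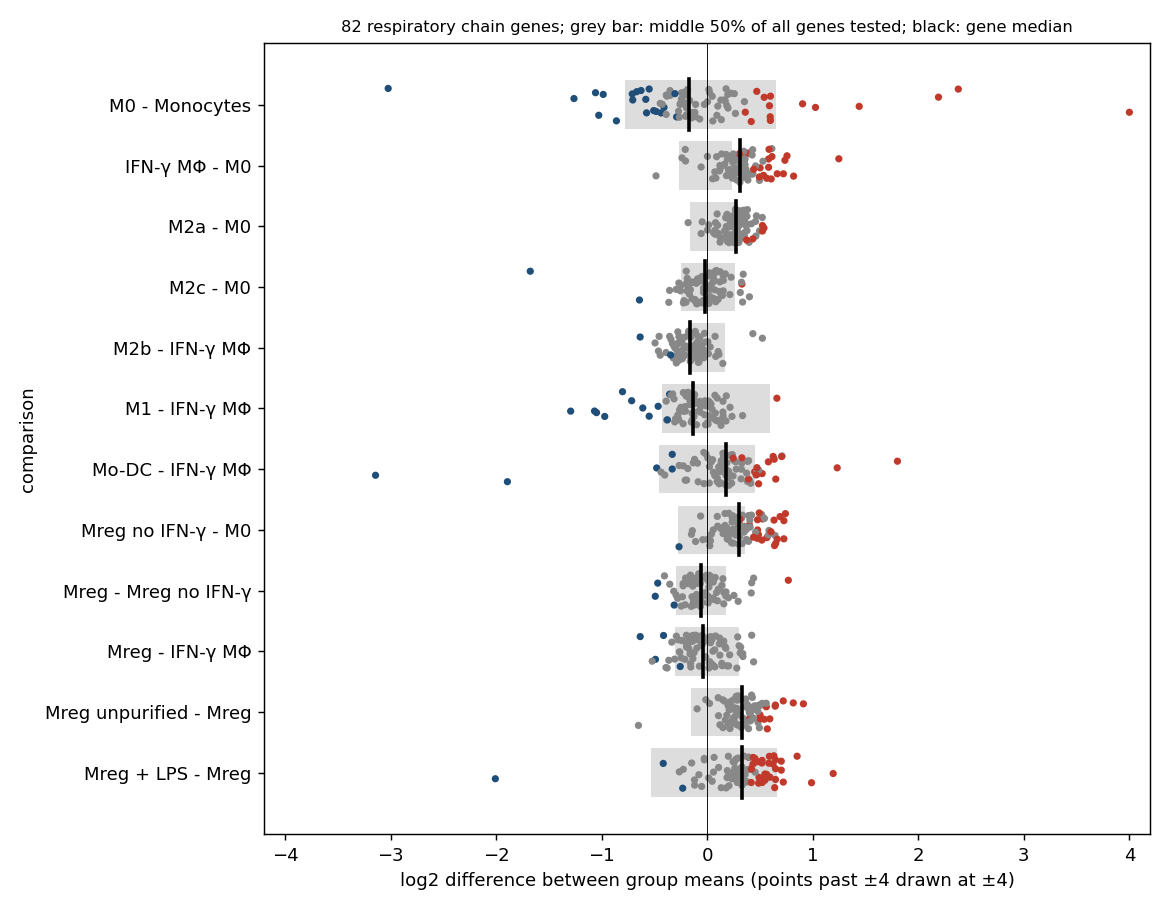
Log2 difference of each of the 82 genes (points; red higher and blue lower at adjusted p below 0.05) in 12 comparisons, with the gene median (black) and the middle 50% of all genes tested (grey). The chain medians lie to the right in IFN-γ MΦ, M2a and Mreg no IFN-γ against M0 and in unpurified Mreg and Mreg + LPS against Mreg; Cox6a2 in M0 against Monocytes is drawn at the axis end.

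A small set of chain genes was lower in M1, the macrophages given LPS, than in IFN-γ MΦ. Of 82 genes, 1 was higher and 11 lower in M1 than in IFN-γ MΦ, against 27.9% of all genes higher, 23.3% lower and 51.2% in either direction. Arrays did not overlap for 17 of the 82 genes and 64.5% of all genes. The median gene differed by -0.14 while all genes had a median of 0.12. Both shares of the chain were below the background. Of the 11, 4 were complex I subunits. Ndufa12 read 5.08, 5.12 and 4.91 in IFN-γ MΦ and 4.09, 4.04 and 3.77 in M1 (-1.07 ± 0.18, adjusted p = 2.19e-05). Ndufs8 (-1.05 ± 0.17), Ndufb5 (-0.97 ± 0.17) and Ndufs1 (-0.55) fell with it, and the M1 arrays of Ndufa12, Ndufs8 and Ndufb5 lay below all IFN-γ MΦ arrays.

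In complex IV Cox6a2 (-1.29 ± 0.35, adjusted p = 0.00274) and Cox7a1 (-0.46) fell, and Cox6b2 rose from -2.74, -2.81 and -2.80 to -2.10, -2.12 and -2.15 (0.66 ± 0.14, adjusted p = 0.0004). The Cox6b2 call was lost with normexp (0.52, adjusted p = 0.0597). In complex III Uqcrc1 fell by 0.38. Complex II had 0 of 4 genes called, with Sdhd at 0.34 ± 0.15 (adjusted p = 0.0608) and Sdhb at 0.24 ± 0.11 (adjusted p = 0.0763).

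Of the c subunit genes of ATP synthase, 2 were called and 1 was not, and their responses were not tested against each other. Atp5g1 read 4.25, 4.06 and 3.92 in IFN-γ MΦ and 3.57, 3.30 and 2.95 in M1, a fall of 0.80 ± 0.20 (adjusted p = 0.00178). Atp5g2 went from 5.23, 5.22 and 4.98 to 4.61, 4.51 and 4.16, a fall of 0.72 ± 0.17 (adjusted p = 0.000875). Atp5g3 differed by -0.20 (95% interval -0.58 to 0.18, adjusted p = 0.379), with overlapping arrays.

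The 11 falls in M1 held under all 4 scalings. Quantile normalization gave 53 genes lower and 1 higher and a median of -0.41, cyclic loess gave 33 lower and 2 higher, and normexp 11 lower and 0 higher. The shares of all genes given above belong to the main fit, so these counts stand without a background. With the replicate block, 3 were higher and 21 lower, and with slide as a random block 1 and 12. Centring on the 82 genes gave 17 higher and 6 lower. M1 was also set against M2a, as the usual poles of macrophage activation: 6 genes were higher and 14 lower in M1 (background 26.7% and 27.6%, 54.4% either way), and the arrays of 23 did not overlap, against 62.2% of all genes. The higher ones included Cycs (0.86 ± 0.16, adjusted p = 3.55e-05), Sdhd (0.85 ± 0.15, adjusted p = 1.82e-05) and Sdhb (0.48 ± 0.11), and the lower ones Ndufa12 (-1.11 ± 0.18), Atp5g1 (-1.05 ± 0.20), Ndufb5 (-0.97 ± 0.17) and Cox7a1 (-0.77 ± 0.18). Quantile normalization gave 5 higher and 47 lower, cyclic loess 8 and 27, and 3 and 13 were called under all 4 scalings.

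In Mreg the LPS response of the chain as a whole depended on the scaling. With the 75th percentile, 32 of 82 genes were higher and 3 lower in Mreg + LPS than in Mreg (background 32% and 25.5%, 57.4% either way; arrays did not overlap for 37 of the 82 genes and 58.9% of all genes), with a median of 0.33 against 0.17 for all genes. Quantile normalization turned this to 4 higher and 31 lower with a median of -0.18, cyclic loess gave 10 and 13, and normexp 16 and 2. With the replicate block 51 were higher and 3 lower, and without Mreg + LPS replicate 1, the array with the highest chain signal of the group, 13 were higher and 5 lower. A fit of these 2 groups alone gave 8 and 2. The scaling also moved the median of all genes in this comparison, from 0.17 with the 75th percentile to 0.36 with normexp, 0.05 with cyclic loess and -0.02 after quantile normalization. No direction of the chain as a whole is therefore given.

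In all, 5 genes kept their call in Mreg under all 4 scalings. Ndufs4, an accessory subunit of the NADH-oxidising arm of complex I, read 4.71, 4.32 and 4.46 in Mreg and 6.48, 5.23 and 5.37 in Mreg + LPS (1.19 ± 0.22, adjusted p = 3.76e-05). Ndufs3, a core subunit of the same complex, went from 4.61, 4.40 and 4.39 to 5.97, 5.24 and 5.16 (0.99 ± 0.17, adjusted p = 2.28e-05). Cox7a1 rose from 0.65, 0.40 and 0.39 to 1.82, 1.04 and 1.14 (0.85 ± 0.18, adjusted p = 0.000187). In all of them the groups did not overlap and Mreg + LPS replicate 1 was the highest array. For the chain median, replicate 1 was the highest array in most other groups as well.

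The 2 genes that fell were Ndufaf1, a complex I assembly factor (1.17, 0.93 and 1.01 against 0.64, 0.55 and 0.67; -0.42 ± 0.10, adjusted p = 0.00074), and Atp5s. The Atp5s probe used here (mm8, chromosome 12, 70663138 to 70663197) read 0.01, -0.06 and 0.03 in Mreg and -1.74, -2.16 and -2.13 in Mreg + LPS, a fall of 2.01 ± 0.14 (adjusted p = 4.04e-12). A second, dimmer probe of Atp5s differed by only -0.03 in the same comparison and was above background on all arrays of both groups. Over the 12 group means it followed the probe used with r of only 0.29. The fall therefore belongs to the probe used and not certainly to the gene. Across the chain, 25 genes had 32 further probes: 22 of these followed the probe used with r above 0.7 over the 12 group means and 5 had r below 0.

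**Figure D4:**
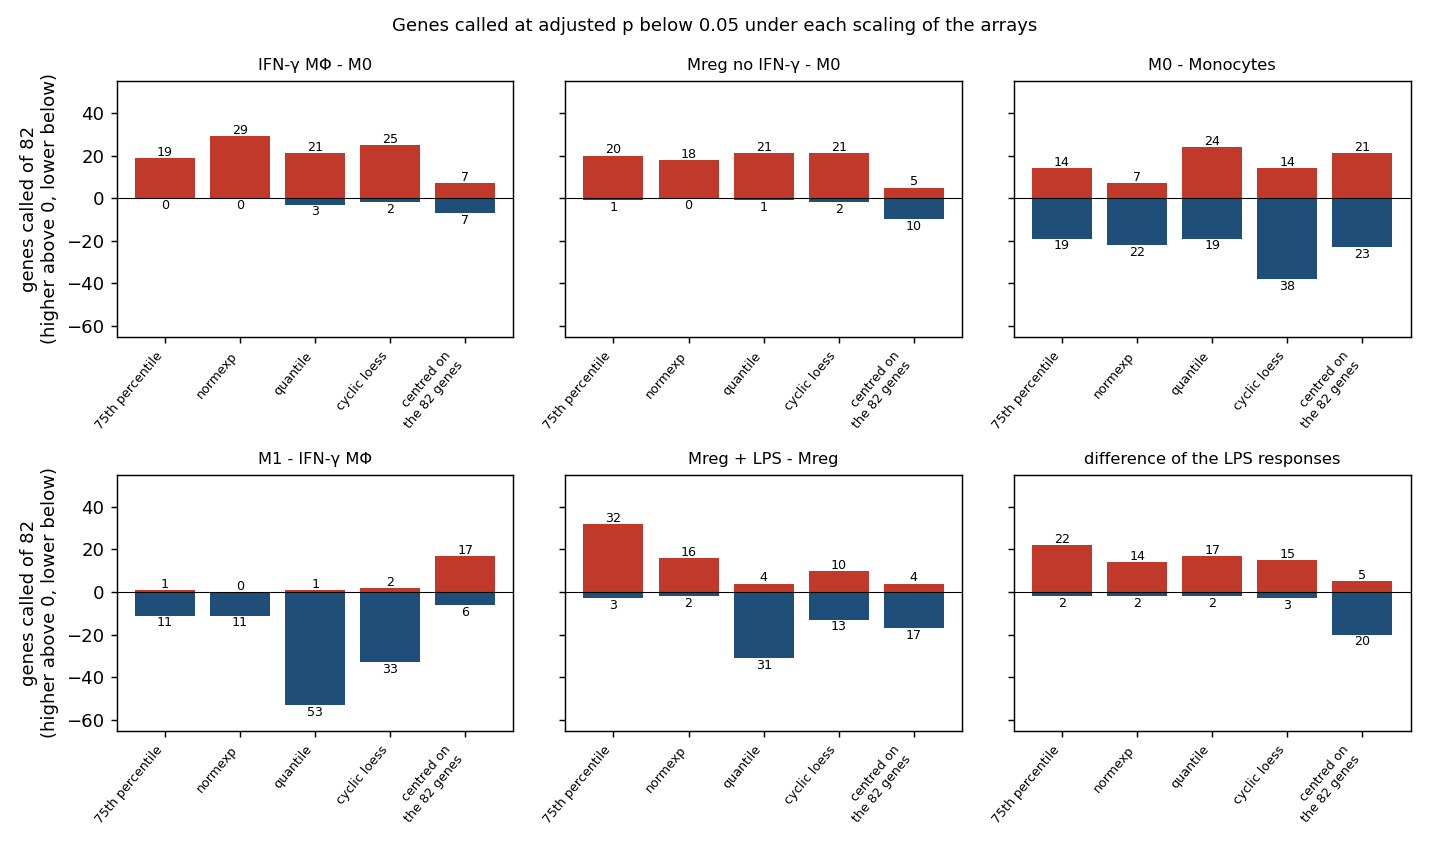
Number of the 82 genes called higher (red, above 0) and lower (blue, below 0) under 5 scalings of the arrays in 6 comparisons. IFN-γ MΦ against M0 and Mreg no IFN-γ against M0 keep their direction under the first 4 scalings, whereas Mreg + LPS against Mreg goes from 32 higher and 3 lower to 4 higher and 31 lower.

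The responses of the chain to LPS in the 2 kinds of culture were compared with an interaction contrast. Mreg and Mreg + LPS shared slides while M1 and IFN-γ MΦ did not, so a shift between slides enters the macrophage side alone. Of 82 genes, 22 had a higher response in Mreg than in macrophages and 2 a lower one (background 18.5% and 16.5%, 35% either way), with a median difference of 0.49 against 0.04 over all genes. Complex I gave 10 of 36, complex IV 5 of 14, complex V 5 of 16 and complex III 2 of 8 of the higher responses, and complex II 0 of 4. Of the 22, 13 and both lower ones were called under all 4 scalings: 14 and 2 were called with normexp, 17 and 2 after quantile normalization and 15 and 3 after cyclic loess. Centred on the 82 genes, 5 were higher and 20 lower.

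Ndufa12 fell in M1 and differed by 0.26 ± 0.18 in Mreg (adjusted p = 0.241), a difference of responses of 1.32 ± 0.26 (adjusted p = 0.000226). Ndufs8 gave 1.25 ± 0.24 (adjusted p = 0.000181) and Cox7a1, lower in M1 and higher in Mreg + LPS, gave 1.32 ± 0.25 (adjusted p = 0.000164). Atp5g2 fell by 0.72 in M1 and was 0.58 ± 0.17 higher in Mreg + LPS, where it read 6.09, 5.45 and 5.33 against 5.17, 5.07 and 4.88. That rise in Mreg was not called under all 4 scalings. Its fall in M1 was, and so was the difference between the responses, 1.30 ± 0.24 (adjusted p = 0.000111). Atp5g1 differed by -0.03 ± 0.20 in Mreg. The difference for Cox6a2 (1.53 ± 0.49, adjusted p = 0.0157) was lost without M1 replicate 1 (1.16, adjusted p = 0.0678) or Mreg + LPS replicate 1 (1.25, adjusted p = 0.0592). The 2 lower responses were Atp5s (-1.40 ± 0.20), with the probe caveat above, and Ndufaf1 (-0.55 ± 0.14, adjusted p = 0.00298). The count was 13 and 2 without M1 replicate 3 or Mreg replicate 3, 12 and 2 without Mreg + LPS replicate 1, 49 and 2 with the replicate block, and 31 and 2 with slide as a random block.

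**Figure D5:**
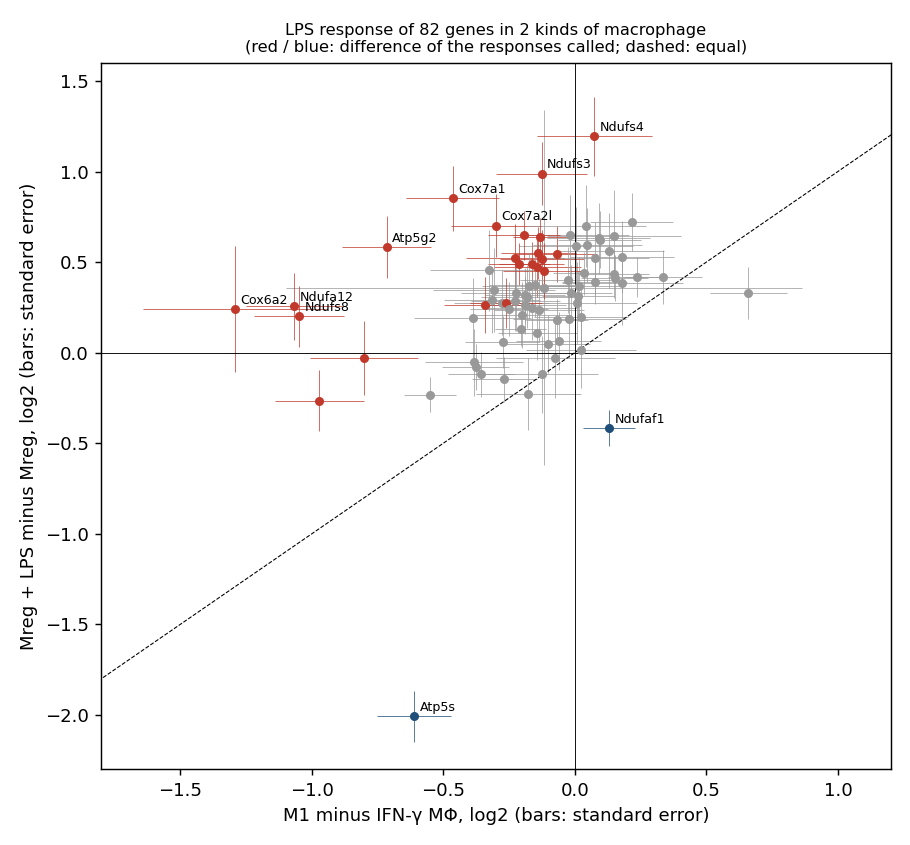
LPS response of each of the 82 genes in macrophages (M1 minus IFN-γ MΦ, x axis) and in Mreg (Mreg + LPS minus Mreg, y axis), in log2 units with standard errors; the dashed line marks equal responses. The 22 red genes lie above the line and the 2 blue genes, Atp5s and Ndufaf1, below it.

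Unpurified Mreg, from mixed adherent cells, had 12 genes higher and 0 lower than Mreg from sorted monocytes (background 6.61% and 5.32%, 11.9% either way), and the arrays of 39 did not overlap, against 26.6% of all genes. The median was 0.33 against 0.10 for all genes. Cox7a1 led, at 0.65, 0.40 and 0.39 in Mreg and between 1.06 and 1.62 in unpurified Mreg (0.91 ± 0.18, adjusted p = 0.00153). Ndufb2, of complex I, was 0.82 ± 0.21 higher and Ndufs8 0.72 ± 0.17 higher. A second probe of Ndufb2 followed the probe used with r of only 0.40 over the 12 group means. The Ndufs8 call was lost without unpurified Mreg replicate 2 (0.57, adjusted p = 0.0662), and that of Ndufb2 without that array (0.61, 0.114) or Mreg replicate 2 (0.69, 0.0649) or 3 (0.80, 0.0528). Both groups shared their slides, and with slide as a fixed block 40 genes were higher and 1 lower, as a random block 27 and 0. Each of these slides held 1 series number, so the fixed block pairs the same arrays as the series number. That pairing did not pass here (lowest correlation 0.06), so the slide block is no separate check. Without unpurified Mreg replicate 2, the array with the low 75th percentile, only 1 gene was called, without Mreg replicate 2 there were 3 and without Mreg replicate 3 there were 2. Quantile normalization gave 8 higher and 0 lower, cyclic loess 8 and 1, and normexp 3 and 0. When only these 2 groups were fitted, 0 genes were called.

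Mo-DC, compared with IFN-γ MΦ, had 16 genes higher and 5 lower (background 22.4% and 25.1%, 47.5% either way; arrays did not overlap for 44 of the 82 genes and 61.2% of all genes), with a median of 0.18 against -0.04. The share higher was near the background. Next to the isoforms Cox7a1 and Cox6b2 given above, Uqcrfs1, the Rieske iron-sulfur protein of complex III, rose by 0.71 ± 0.15 (adjusted p = 0.000292) and Atp5a1 by 0.65 ± 0.17 (adjusted p = 0.00311). Ndufa4 was the sharpest fall after Cox6a2: it read 5.19, 4.99 and 4.82 in IFN-γ MΦ and 2.91, 2.70 and 3.71 in Mo-DC (-1.89 ± 0.20, adjusted p = 1.25e-08). In the other 11 groups Ndufa4 stayed between 4.35 and 5.29, and no Mo-DC array reached that span. Cycs was 0.48 ± 0.16 lower in Mo-DC (adjusted p = 0.0131), a call lost without Mo-DC replicate 2 (-0.42, adjusted p = 0.0564). The count was 7 and 5 without IFN-γ MΦ replicate 3, 25 and 8 after quantile normalization, 33 and 6 after cyclic loess and 8 and 6 with normexp. Mo-DC and IFN-γ MΦ differed in growth factors and IL-4 together.

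Beyond the chain itself, genes around it were read from lists chosen with earlier results known. The cofactors that drive mitochondrial gene expression did not move together: of 16 regulators measured, 3 were higher and 0 lower with IFN-γ in macrophages, near the background of 11% and 11.1%. The largest was Ppargc1b, which encodes the coactivator PGC-1β, at -0.66 ± 0.21 (SD, n = 3) in M0 and 2.19 ± 0.21 in IFN-γ MΦ. It rose by 2.86 ± 0.24 (adjusted p = 6.08e-10), by 2.54 to 2.87 over the 4 scalings. Esrra, its nuclear receptor partner, rose by 0.76 ± 0.13 (adjusted p = 4.04e-05). Ppargc1b also rose with IL-4 (1.66 ± 0.24, adjusted p = 1.9e-05) and fell with LPS in M1 (-0.97 ± 0.24, adjusted p = 0.00109) and in Mreg (-1.72 ± 0.24, adjusted p = 5.85e-07). Nrf1, Gabpa and Tfam differed by 0.03, 0.04 and 0.00 with IFN-γ and were not called.

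Among genes encoded by mitochondrial DNA, 3 had probes that passed the filter, CYTB, ND4L and COX2, and these supply complexes III, I and IV. All were lower with LPS, in M1 against IFN-γ MΦ and in Mreg + LPS against Mreg, under each of the 4 scalings. CYTB read 4.55 ± 0.35 in IFN-γ MΦ and 3.18 ± 0.82 in M1 (-1.37 ± 0.28, adjusted p = 0.000195). It read 3.39 ± 0.24 in Mreg and 1.46 ± 0.42 in Mreg + LPS (-1.93 ± 0.28, adjusted p = 1.59e-06). ND4L fell by 0.81 ± 0.22 in M1 and 1.80 ± 0.22 in Mreg + LPS, and COX2 by 0.84 ± 0.18 and 0.88 ± 0.18. With IFN-γ alone these genes differed by -0.01 to 0.03.

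The tricarboxylic acid cycle, which supplies the chain with NADH and succinate, had 5 of 17 genes higher and 1 lower with IFN-γ in macrophages, 0 higher and 7 lower with LPS in M1, and 10 higher and 0 lower in Mreg no IFN-γ against M0. The shares of all genes were 11% higher and 11.1% lower, 27.9% and 23.3%, and 17.2% and 13.7% in these comparisons. Idh2, the NADP-dependent mitochondrial isocitrate dehydrogenase, fell by 2.33 ± 0.15 in M1 (adjusted p = 1.78e-12) and Suclg2, a succinate-CoA ligase subunit, by 2.26 ± 0.13. Among 16 complex IV assembly factors, Sco1, a copper chaperone, rose by 1.08 ± 0.13 with IFN-γ (adjusted p = 2.37e-07), and 5 of 16 were higher and 0 lower there, where 11% of all genes were higher. Lrpprc, which stabilises mitochondrial messages, fell by 1.23 ± 0.14 in M1 and 2.03 ± 0.14 in Mreg + LPS. Cell cycle genes moved in many of the same comparisons: of 19, 0 were higher and 1 lower with IFN-γ in macrophages, 17 higher and 0 lower with IFN-γ in Mreg, 0 and 18 with LPS in M1, 0 and 16 with LPS in Mreg, 0 and 17 with IL-4, and 1 and 17 from Monocytes to M0. In the same order, 11.1% of all genes were lower, 9.51% higher, and then 23.3%, 25.5%, 5.75% and 33.3% lower. Their part in the chain's differences was not tested.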

How the data were processed

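RNA from 36 cultures in 12 groups was hybridised to 36 one-colour Agilent arrays of design 014868 (probe positions in mm8), per the file headers. The authors deposited scanner output of Feature Extraction 10.5.1.1 (protocol GE1_105_Jan09); its processed signal is an intensity on a linear scale, already background-subtracted, per the file headers. The deposited series table holds log2 values that follow the scanner signals (r 0.9974 to 0.99997 per array, medians 4.334 to 4.378). Its normalization is not given in the sources used here, and it served as an alternative. Its quartiles differed between arrays by at most 0.0435 log2 units, so its arrays already share nearly the same quartiles. Its counts of calls lay close to those of quantile normalization, so it is no separate check beside that scaling.

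Here the processed signal was scaled by each array's 75th percentile and log2-transformed. Probes well above background on at least 3 arrays were kept, the brightest per gene, and 12 group means were fitted to all genes with limma 3.58.1 in R 4.3.3, with contrasts adjusted by Benjamini-Hochberg at 0.05. "Higher", "lower", "rose" and "fell" refer to this threshold, errors after ± are standard errors unless marked SD, and all fold values are on the log2 scale unless marked. Named genes were the 5 largest rises and falls per comparison among called genes whose arrays did not overlap, plus fixed isoforms and regulators; a few others were chosen after their values were seen. The members and lists were chosen with earlier results of these data known. The fit was also run on simulated data with independent noise on each array. Those data held no shift shared by a slide or series, so that run does not test the calls against such shifts.

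Series numbers were taken to pair arrays where every same-numbered pair's deviations correlated above 0.1. This held for IFN-γ MΦ, M2a and M2c against M0, for M1 and M2b against IFN-γ MΦ, for Mreg against Mreg no IFN-γ and for Mreg + LPS against Mreg (lowest correlations 0.10 to 0.34). Alternatives were normexp background correction (offset 50), quantile normalization, the deposited table, other filters and probe rules, slide, scan day or replicate as a block, fits of the compared groups alone and leaving out each array; cyclic loess, centring on the 82 genes and slide as a fixed block were chosen after seeing the data. The number of arrays limits the precision. Promoters and current symbols came from RefSeq tables (GRCm38.p6), matched by symbol.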

Additional observations from a re-analysis of the deposited data

Results flagged for a closer look

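The LPS response differed between Mreg and macrophages, by the test of the difference itself, in 24 of the 82 genes: 22 responses were higher in Mreg and 2 lower. Of all genes 35% were called, 18.5% higher and 16.5% lower, so the chain was not called more often in all, and centred on the 82 genes 5 were higher and 20 lower. The named ones, in log2 units, were Cox6a2 (1.535), Ndufa12 (1.32), Cox7a1 (1.32), Atp5g2 (1.30), Ndufs8 (1.25), Atp5s (-1.40, from one of its 2 probes) and Ndufaf1 (-0.55). Each was higher or lower by limma's adjusted p with 3 arrays in each of the 4 groups, and 15 of the 24 were called under all 4 scalings.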

How the results depend on the processing

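Counts are genes of 82 called higher and lower, and the cause of a change was not tested. The shares of all genes in this report belong to the main fit, so counts under other settings stand without a background. A change in them may be one of all genes and not of the chain. Normexp gave 14 and 0 for M2a against M0, 29 and 0 for IFN-γ MΦ, 2 and 1 for M2c, 0 for M2b, 1 and 1 for Mreg against Mreg no IFN-γ, 16 and 2 for Mreg + LPS and 3 for unpurified Mreg. Quantile normalization gave 43 calls in M0 against Monocytes, 52 in M1 against M2a, 54 in M1 against IFN-γ MΦ, 33 in Mo-DC, 12 in Mreg against Mreg no IFN-γ, 35 in Mreg + LPS, 5 in M2c and 16 in Mreg against IFN-γ MΦ; the deposited table gave 43, 52, 54, 32, 12, 35, 5 and 15 in the same order, and 7 in unpurified Mreg. Cyclic loess gave 52, 35, 35, 39, 9, 23, 7 and 14 in that order, 4 in M2b and 1 for the difference of IFN-γ responses.

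With the series number as a replicate block, calls were 44 for IFN-γ MΦ, 24 for M1 against IFN-γ MΦ, 22 for M2a, 4 for M2b, 6 for M2c, 9 for Mreg against Mreg no IFN-γ, 54 for Mreg + LPS, 51 for the difference of LPS responses and 3 for that of IFN-γ responses. Where the numbers did not pair the arrays it gave 33 for M1 against M2a, 35 for Mo-DC, 16 for Mreg against IFN-γ MΦ, 41 for Mreg no IFN-γ against M0 and 42 for unpurified Mreg. Scan day as a block gave 15 for M2a, 34 for IFN-γ MΦ, 19 for M1 against IFN-γ MΦ, 6 for M2c, 7 for Mreg against Mreg no IFN-γ, 8 for Mreg against IFN-γ MΦ, 36 for Mreg no IFN-γ against M0, 29 for unpurified Mreg, and 40 and 1 for the differences of LPS and IFN-γ responses. Slide as a random block gave 15 for M2a, 5 for M2c, 8 for Mreg against Mreg no IFN-γ and 27 for unpurified Mreg. As a fixed block, where it could be fitted, slide gave 20, 9 and 41 for M2a, Mreg against Mreg no IFN-γ and unpurified Mreg, 31 for M1 against M2a and 34 for Mo-DC. Each slide held 1 series number, so in these comparisons the fixed slide block pairs the same arrays as the series number.

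Centred on the 82 genes, calls were 0 for M2a, 34 for M1 against M2a, 1 for M2b, 39 for Mo-DC, 12 for Mreg against Mreg no IFN-γ, 21 for Mreg + LPS, 5 for unpurified Mreg, 23 for M1 against IFN-γ MΦ, 6 for M2c, 15 for Mreg against IFN-γ MΦ, 15 for Mreg no IFN-γ against M0, and 25 and 1 for the differences of LPS and IFN-γ responses. Fits of the compared groups alone gave 0 for M2a, M2b and unpurified Mreg, 2 for Mreg against Mreg no IFN-γ, 10 for Mreg + LPS, 6 for M2c, and 14 and 1 for the differences of LPS and IFN-γ responses. No filter gave 3 for M2a, 0 for M2b and 6 for unpurified Mreg, the stricter filter 8 for M2a, and the mean of all probes 7 for Mreg against IFN-γ MΦ and 1 for the difference of IFN-γ responses.

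Leaving out each array in turn gave 9 to 22 calls for IFN-γ MΦ, 26 to 31 for M0 against Monocytes, 9 to 15 for M1 against IFN-γ MΦ, 18 to 21 for M1 against M2a, 0 to 10 for M2a, 0 to 3 for M2b, 2 to 3 for M2c, 12 to 21 for Mo-DC, 18 to 46 for Mreg + LPS, 8 to 20 for Mreg no IFN-γ against M0, 1 to 18 for unpurified Mreg, 2 to 5 for Mreg against IFN-γ MΦ, 2 to 4 for Mreg against Mreg no IFN-γ (3 without Mreg no IFN-γ replicate 1, with 2 higher and 1 lower, the balance turned), 14 to 35 for the difference of LPS responses, 0 for that of IFN-γ responses and 76 to 80 for the F test. For the genes named by rule, 1456 of 1607 alternative values kept direction and call, 151 kept direction only and 0 reversed. All 82 genes were above background on every array. Of 84 gene results, 19 lost their call when only the compared groups were fitted and 17 when centred on the 82 genes. With normexp 13 lost it, and with no filter on dim probes 10.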

Other observations

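Other gene groups around the chain were read in the LPS and culture comparisons, beside the shares of all genes called. These were 27.9% higher and 23.3% lower in M1 against IFN-γ MΦ, 32% and 25.5% in Mreg + LPS against Mreg, 11% and 11.1% in IFN-γ MΦ against M0, 30.2% and 33.3% in M0 against Monocytes, and 9.96% and 10.7% in M2c against M0. The counts of the short lists (coenzyme Q, carriers, hypoxia switch, assembly factors) come from few genes and are given as values only. The large subunit of the cytosolic ribosome had 0 of 46 genes higher and 40 lower in M1 against IFN-γ MΦ, and the small subunit 0 and 27 of 31. In Mreg + LPS against Mreg the large subunit had 38 higher and 0 lower with the 75th percentile, 17 and 0 with normexp, 3 and 1 with cyclic loess and 1 and 9 after quantile normalization, so its direction there depends on the scaling as that of the chain does. The mitochondrial ribosome had 7 of 46 large subunit genes higher and 15 lower in M1, and 23 and 3 in Mreg + LPS, which quantile normalization turned to 15 and 17; its small subunit had 2 and 12 of 29 in M1 and 8 and 7 in Mreg + LPS.

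Of 10 genes of coenzyme Q synthesis, 3 were higher and 1 lower with IFN-γ in macrophages, 2 and 4 with LPS in M1, and 1 and 5 with LPS in Mreg. Of 10 mitochondrial carriers, 3 were higher and 0 lower with IFN-γ and 1 and 5 with LPS in M1, where Ucp2, an uncoupling protein, fell by 1.63. Of 7 genes of the hypoxia switch, 4 were higher and 1 lower in M0 than in Monocytes and 0 and 4 with dexamethasone; Pdk1, a kinase that inhibits pyruvate dehydrogenase, rose by 2.95 from Monocytes to M0 and fell by 1.79 in Mreg + LPS. Of 8 assembly factors of complexes III and V, 5 were higher and 1 lower in M0 than in Monocytes and 0 and 3 in Mreg + LPS.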
